A study of Rattus norvegicus with 6 samples.

Results

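Cells build cholesterol and fatty acids from acetyl-CoA, and the genes for both routes were followed here in cultured rat heart-derived cells given an siRNA against Mt2, a metallothionein gene, or a control siRNA. The set held 41 genes, listed by name from textbook roles with earlier results of these data known. Of 18237 rows in the gene count files, all 41 were present. They were sorted into 18 enzymes of sterol synthesis, 5 regulators of the sterol-sensing pathway, 5 genes of sterol transport and efflux, and 13 genes of fatty acid synthesis, desaturation, elongation and activation. Of these, 39 had enough counts to be tested. Abcg1 and Elovl6 did not pass the filter on low counts, with 1 to 5 and 4 to 13 reads per library.

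The cells were labelled NRVM, which commonly stands for ventricular myocytes of newborn rats, whereas the growth text speaks of embryonic myocardium. Of 6 libraries, 3 were labelled siMt2 and 3 siNT, the non-targeting control. All were grown in medium with serum and antibiotics, and a protocol text shared by both groups names dexamethasone, isobutylmethylxanthine and insulin but does not state whether they were applied here. The labels do not say whether replicates are separate cultures, so the p-values cover the scatter among these 6 libraries, possibly only technical. Gene counts summed to 6817777, 4220831 and 2859759 in the libraries labelled siMt2 and to 5561522, 4216586 and 6567793 in the siNT libraries, and a count of 3 corresponded to 0.437 to 1.05 CPM (TMM-scaled CPM, read counts relative to library size).

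The labels could be checked only in part. Mt2a, the targeted transcript, stood at 70.4, 87.0 and 141 CPM in the libraries labelled siMt2, against 90.4, 169 and 93.0 CPM in siNT libraries. The groups overlapped (log2 fold change -0.28, SE 0.42, edgeR adjusted p = 0.631; two-sided exact permutation p = 0.5, smallest possible 0.1), so a lower target transcript was not detectable. Of 9 heart muscle markers analysed, 7 were too low to test, with 3 (Tnni3) to 51 (Pln) reads over all 6 libraries, among them 9 of Myh6 and 4 of Actc1. The tested ones were Tnnt2, higher at 54.3 ± 5.17 CPM in the libraries labelled siMt2 and 27.1 ± 1.37 CPM in siNT libraries, and Ttn, which did not pass at 6.62 ± 1.58 CPM in the libraries labelled siMt2 and 8.47 ± 1.77 CPM in siNT libraries. The list summed to 57.0 to 72.0 CPM in the libraries labelled siMt2 and 36.2 to 40.2 CPM in siNT libraries. Of 8 fibroblast markers tested, 6 were higher and 0 lower. Summed levels were 9853 to 13811 CPM in the libraries labelled siMt2 and 7576 to 7731 CPM in siNT libraries. Col1a1 was the largest part (7769 ± 1551 CPM in the libraries labelled siMt2, 4686 ± 167 CPM in siNT libraries). Of the 6, Dcn and Lum rested on 50 and 51 reads over all 6 libraries. Pdgfra, with 2 reads, was not tested. Among all genes tested, 25.8% were higher and 25.1% lower. Smooth muscle markers were higher in 6 of 6, with summed levels of 3781 to 3878 CPM in the libraries labelled siMt2 and 1850 to 1913 CPM in siNT libraries. Adipocyte markers were near 0, with summed levels of 0.728 to 2.36 CPM in the libraries labelled siMt2 and 2.75 to 4.53 CPM in siNT libraries; Lipe, the 1 tested, was lower, and Adipoq, Fabp4, Cidec and Lep were not analysed here. Of the other marker lists, 1 of 2 tested endothelial genes was lower (Eng; list sum 33.3 to 40.7 CPM in the libraries labelled siMt2 and 76.1 to 84.8 CPM in siNT libraries). Cd14, the 1 leukocyte gene tested, was lower (list sum 14.1 to 17.2 CPM in the libraries labelled siMt2 and 22.6 to 27.2 CPM in siNT libraries), and 0 hepatocyte genes could be tested. The part of these cell type differences in the results below was not tested, and in bulk RNA fewer cells of a type and less RNA per cell cannot be told apart. The library labelled siMt2 replicate 3, with the fewest counts, stood apart from the others of its group on the second principal component (-26.4, against 9.58 and 18.8).

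As background, cholesterol is made in a long chain of enzyme steps that first assemble isoprenoid units, then join them into squalene, close the sterol rings and trim the side groups. SREBP transcription factors, held in the endoplasmic reticulum by INSIG proteins and escorted out by SCAP when sterols are low, switch on many of these genes together with fatty acid genes. LXR nuclear receptors act on the opposite side, switching on the efflux transporters ABCA1 and ABCG1 when sterols accumulate.

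Both routes contained genes that moved in each direction, so no common direction ran through the set. In edgeR's quasi-likelihood test, the libraries labelled siMt2 had 12 of 39 tested genes higher (30.8%) and 13 lower (33.3%) at an adjusted p under 0.05. Among all 11726 genes tested, 25.8% were higher and 25.1% lower, 50.9% in either direction. The tested genes of the set also had a higher median level, 56.0 CPM against 33.5 CPM over all genes tested, and the part of depth in the number of calls was not tested. The median log2 fold change of the set was -0.02, and that of all genes was 0.00043. Groups did not overlap for 12 genes that lay higher and 14 that lay lower, against 57.6% of all genes tested in either direction. Of the 39 tested genes, 2 (Fads3 and Fads2) were higher by more than 1 on the log2 scale, against 6.36% of all genes tested. By the same measure 1 of 39 (Abca1) was lower, against 2.60% of all genes tested. Without siMt2 replicate 3, 11 genes were higher and 13 lower. Without siNT replicate 3, 12 were higher and 8 lower.

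**Figure D1:**
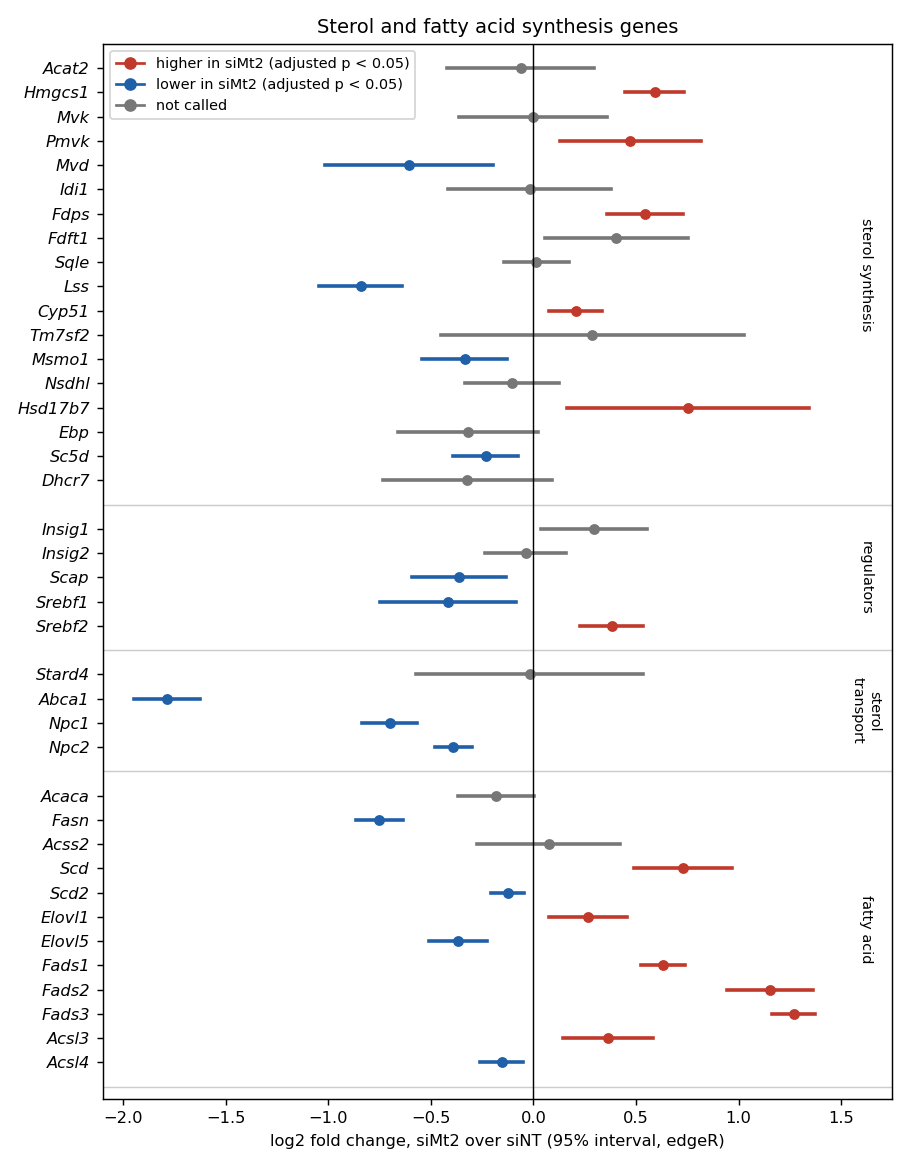
Log2 fold change of the 39 tested genes, libraries labelled siMt2 over siNT, on the x axis, by role down the page. Points are edgeR estimates and lines 95% intervals (n = 3 libraries each). Red genes were higher and blue genes lower at adjusted p under 0.05; Fads3 (1.27) and Abca1 (-1.79) lie at the ends.

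Each role held genes that passed, and so did 50.9% of all genes tested (25.8% higher, 25.1% lower). The share that passed was 50% in sterol synthesis, 83.3% in fatty acid genes, 75% in transport and 60% in regulators. Of 18 sterol synthesis enzymes, 5 were higher and 4 lower, with a median log2 fold change of -0.01. Of 12 tested fatty acid genes, 6 were higher and 4 lower, with a median of 0.17. Of 4 tested transport genes, 0 were higher and 3 lower, with a median of -0.545, and of 5 regulators 1 was higher and 2 lower, with a median of -0.04. Summed over each role, levels were 735 ± 13.9 CPM in the libraries labelled siMt2 and 711 ± 17.2 CPM in siNT libraries for sterol synthesis, and 1999 ± 18.2 CPM in the libraries labelled siMt2 and 1864 ± 16.7 CPM in siNT libraries for the fatty acid genes (SD, n = 3 each). The transport sum was 606 ± 19.3 CPM in the libraries labelled siMt2 and 921 ± 24.7 CPM in siNT libraries. No test was made between the roles, since the genes were chosen with earlier results known.

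Of 5 fatty acid desaturases 4 were higher and 1 lower, against 25.8% higher and 25.1% lower among all genes tested. The desaturases were picked out with earlier results of these data known. Fads3 and Fads2 had the largest rises of the 39 tested genes. Fads1, Fads2 and Fads3 encode desaturases of one family: in mammals FADS1 and FADS2 are the delta-5 and delta-6 desaturases that make polyunsaturated fatty acids, and the role of FADS3 is less well defined. Fads3 stood at 323, 312 and 324 CPM in the libraries labelled siMt2, against 135, 128 and 135 CPM in siNT libraries. The lowest siMt2 value lay far above the highest siNT value, with a log2 fold change of 1.27 (SE 0.05, edgeR adjusted p = 5.55e-14). Fads2 stood at 78.7, 84.8 and 74.8 CPM in the libraries labelled siMt2, against 31.1, 39.3 and 37.3 CPM in siNT libraries, again without overlap (1.15, SE 0.10, edgeR adjusted p = 7.85e-09). Fads1 stood at 237, 239 and 247 CPM in the libraries labelled siMt2, against 158, 156 and 153 CPM in siNT libraries (0.63, SE 0.05, edgeR adjusted p = 3.17e-09). With any 1 library left out, the log2 fold change stayed between 1.24 and 1.29 for Fads3, between 1.05 and 1.21 for Fads2 and between 0.62 and 0.65 for Fads1.

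These 3 genes lie next to each other on rat chromosome 1 in the RefSeq annotation of GRCr8, the build of the order and promoters given here; the counts were made on rn6. Their promoters, 250 bases before to 50 after the start, are shown because the 3 genes rose together. Capitals mark matches on either strand to the CCAAT box (CCAAT), the GC box (GGGCGG), the E-box (CACGTG) and the sterol regulatory element (TCACNCCAC).

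Fads3, chr1:216110623-216110922, plus strand: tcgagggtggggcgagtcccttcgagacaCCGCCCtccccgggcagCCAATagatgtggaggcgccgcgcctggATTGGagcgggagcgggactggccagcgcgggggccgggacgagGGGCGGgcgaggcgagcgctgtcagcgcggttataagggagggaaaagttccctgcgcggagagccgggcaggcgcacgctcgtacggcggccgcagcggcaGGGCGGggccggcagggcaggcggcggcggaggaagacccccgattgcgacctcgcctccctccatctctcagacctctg

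Fads2, chr1:216171984-216172283, minus strand: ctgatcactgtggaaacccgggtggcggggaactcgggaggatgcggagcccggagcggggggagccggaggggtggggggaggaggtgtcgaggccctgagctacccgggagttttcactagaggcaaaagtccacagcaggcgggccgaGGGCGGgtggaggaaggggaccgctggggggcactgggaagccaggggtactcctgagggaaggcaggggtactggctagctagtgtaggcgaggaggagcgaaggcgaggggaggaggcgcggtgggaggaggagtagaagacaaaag

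Fads1, chr1:216252442-216252741, plus strand: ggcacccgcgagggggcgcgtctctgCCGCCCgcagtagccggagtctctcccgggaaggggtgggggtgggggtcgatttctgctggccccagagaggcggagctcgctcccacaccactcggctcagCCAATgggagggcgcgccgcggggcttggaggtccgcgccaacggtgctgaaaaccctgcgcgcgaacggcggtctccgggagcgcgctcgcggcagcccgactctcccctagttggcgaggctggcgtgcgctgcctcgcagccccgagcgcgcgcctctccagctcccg

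The Fads3 window held 2 CCAAT boxes and 3 GC boxes, that of Fads2 1 GC box and no CCAAT box, and that of Fads1 1 of each. None of the 3 held the E-box or the sterol regulatory element as spelled. The flanking protein-coding genes did not all follow: Rab3il1, beside Fads3, was at 20.5 ± 0.875 CPM in the libraries labelled siMt2 and 25.01 ± 2.64 CPM in siNT libraries (log2 fold change -0.27, edgeR adjusted p = 0.109). Fen1, a DNA repair nuclease gene beside Fads1, was at 26.2 ± 3.69 CPM in the libraries labelled siMt2 and 27.7 ± 3.36 CPM in siNT libraries (-0.05, edgeR adjusted p = 0.784), with a sign that turned without siMt2 replicate 3 (0.04) or siNT replicate 1 (0.05). Tmem258, the next gene, was higher (0.68, SE 0.14, edgeR adjusted p = 0.00034). These neighbours were chosen after values were seen.

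Of the stearoyl-CoA desaturases, which place the first double bond in saturated acyl chains, the less counted one rose and the more counted one fell slightly. Scd stood at 54.0, 43.4 and 56.2 CPM in the libraries labelled siMt2, against 32.6, 31.2 and 28.7 CPM in siNT libraries (log2 fold change 0.73, SE 0.11, edgeR adjusted p = 2.07e-05). Scd2 stood at 669, 663 and 687 CPM in the libraries labelled siMt2, against 735, 739 and 726 CPM in siNT libraries (-0.12, SE 0.04, edgeR adjusted p = 0.0106). Neither gene overlapped between groups, although the change of Scd2 was small, and it missed the threshold without siMt2 replicate 1 (edgeR adjusted p = 0.0503) and under upper quartile scaling (0.0516). Scd took 7.47%, 6.14% and 7.56% of the reads of both genes in the libraries labelled siMt2 and 4.25%, 4.05% and 3.81% in siNT libraries, a description made after values were seen. The desaturase genes are similar in sequence within each family, and the sources used here do not say how reads matching several genes were counted, so the split between them is uncertain.

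Chain building itself was lower or did not pass. Fasn, the fatty acid synthase that builds palmitate, stood at 155, 159.6 and 142 CPM in the libraries labelled siMt2, against 254, 256 and 263 CPM in siNT libraries. The groups were far apart, with a log2 fold change of -0.75 (SE 0.05, edgeR adjusted p = 5.51e-10). Acaca, the acetyl-CoA carboxylase that makes its malonyl-CoA substrate, averaged 70.2 ± 4.32 CPM in the libraries labelled siMt2 and 79.4 ± 8.82 CPM in siNT libraries (SD, n = 3 each) and did not pass (-0.18, 95% interval -0.37 to 0.0027, edgeR adjusted p = 0.0932). It passed without siMt2 replicate 3 (edgeR adjusted p = 0.0321) or siNT replicate 1 (0.0306). Acss2, which activates acetate, averaged 19.4 ± 2.00 CPM in the libraries labelled siMt2 and 18.7 ± 4.26 CPM in siNT libraries (0.07, 95% interval -0.27 to 0.42, edgeR adjusted p = 0.736).

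Elongases and acyl-CoA synthetases split. Elovl5, which lengthens polyunsaturated chains, stood at 87.2, 81.5 and 85.3 CPM in the libraries labelled siMt2, against 112, 111 and 105 CPM in siNT libraries (log2 fold change -0.37, SE 0.07, edgeR adjusted p = 0.000151). Elovl1, which lengthens saturated very long chains, was higher at 61.2 ± 3.75 CPM in the libraries labelled siMt2 and 50.9 ± 2.39 CPM in siNT libraries (0.27, SE 0.09, edgeR adjusted p = 0.0188). The Elovl1 call was lost without siMt2 replicate 2 (edgeR adjusted p = 0.0787), siNT replicate 1 (0.0708) or siNT replicate 2 (0.0686), and with DESeq2 (0.0640). Elovl6, which lengthens palmitate, lay between 0.943 and 2.11 CPM in the libraries labelled siMt2 and between 0.611 and 2.34 CPM in siNT libraries. Acsl3, an acyl-CoA synthetase of lipid droplets and endoplasmic reticulum, stood at 46.7, 41.5 and 42.1 CPM in the libraries labelled siMt2, against 35.5, 31.4 and 34.7 CPM in siNT libraries (0.36, SE 0.11, edgeR adjusted p = 0.00675, and 0.0579 without siMt2 replicate 1). Acsl4, which prefers arachidonate, was slightly lower at 202 ± 3.57 CPM in the libraries labelled siMt2 and 225 ± 5.35 CPM in siNT libraries (-0.15, SE 0.05, edgeR adjusted p = 0.0151). That call was lost without siMt2 replicate 1 (edgeR adjusted p = 0.0629) or siNT replicate 3 (0.0586), under upper quartile scaling (0.0560) and with DESeq2 (0.0592).

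**Figure D2:**
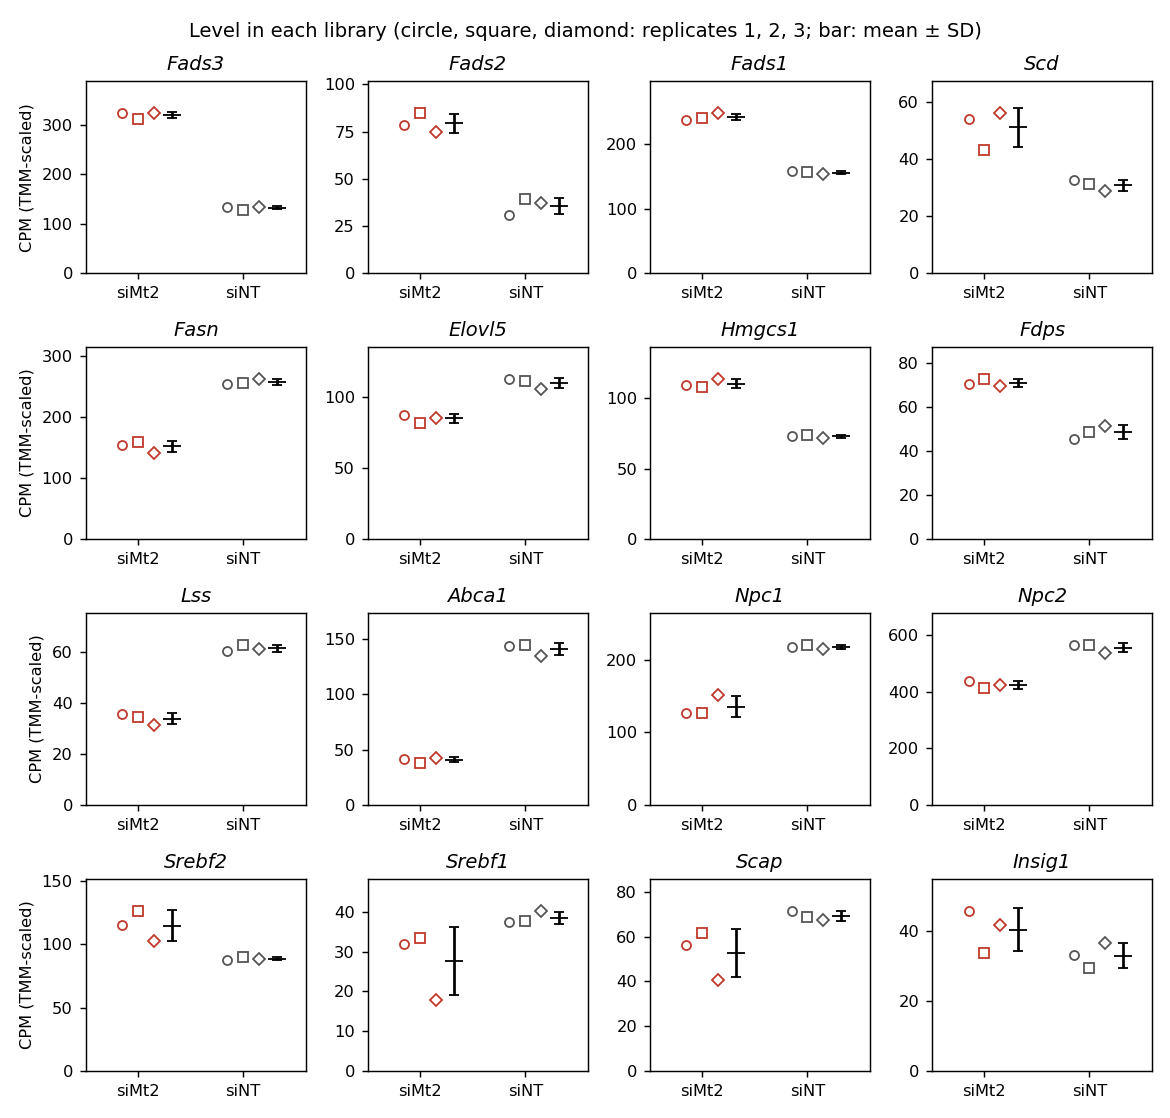
TMM-scaled CPM of 16 genes (y axis, starting at 0) in each library, siMt2 left of siNT. Open symbols are replicates 1 to 3 and black bars mean ± SD. Fads3, Fads2, Fads1, Scd, Hmgcs1, Fdps and Srebf2 lie higher and Fasn, Elovl5, Lss, Abca1, Npc1, Npc2, Srebf1 and Scap lower in siMt2 without overlap, and Insig1 overlaps.

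The sterol export and intracellular transport genes of the set were lower wherever they passed, 3 of 4 tested. This did not extend to the 18 sterol-carrier genes outside the set, of which 9 were higher and 1 lower. Among all genes tested, 25.8% were higher and 25.1% lower. Abca1, the transporter that loads cellular cholesterol onto apolipoproteins, stood at 42.1, 38.2 and 42.1 CPM in the libraries labelled siMt2, against 144, 145 and 134 CPM in siNT libraries. The siMt2 level was 0.290 times the siNT level (95% interval 0.260 to 0.324), a log2 fold change of -1.79 (SE 0.08, edgeR adjusted p = 1.56e-13), and this was the largest change of the 39 tested genes. With any 1 library left out it stayed between -1.82 and -1.74. Npc1, the membrane protein that moves cholesterol out of lysosomes, stood at 127, 127 and 152 CPM in the libraries labelled siMt2, against 218, 221 and 214 CPM in siNT libraries (-0.70, SE 0.06, edgeR adjusted p = 1.57e-08). Npc2, its soluble lysosomal partner, stood at 438, 412 and 422 CPM in the libraries labelled siMt2, against 565, 566 and 538 CPM in siNT libraries (-0.39, SE 0.04, edgeR adjusted p = 2.68e-07). Neither overlapped between groups. In the RefSeq annotation Npc1 overlaps Rmc1, Srebf1 overlaps Rai1, Idi1 overlaps Wdr37, and Acat2, Acsl3 and Insig1 each overlap an uncharacterised gene. Fads2, Hmgcs1, Fdft1 and Acaca each overlap a long non-coding RNA gene. Without stated strand use the levels of all these genes are uncertain. Stard4, a soluble sterol carrier, stood at 4.95, 7.07 and 5.27 CPM in the libraries labelled siMt2, against 6.30, 5.00 and 5.96 CPM in siNT libraries, with a wide interval (-0.02, 95% interval -0.57 to 0.54, edgeR adjusted p = 0.959). Abcg1, which exports cholesterol to lipoprotein particles, had 1, 2 and 1 reads in the libraries labelled siMt2 and 5, 3 and 3 in siNT libraries.

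The Abca1 promoter is shown because this gene moved most.

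Abca1, chr5:72596424-72596723, minus strand: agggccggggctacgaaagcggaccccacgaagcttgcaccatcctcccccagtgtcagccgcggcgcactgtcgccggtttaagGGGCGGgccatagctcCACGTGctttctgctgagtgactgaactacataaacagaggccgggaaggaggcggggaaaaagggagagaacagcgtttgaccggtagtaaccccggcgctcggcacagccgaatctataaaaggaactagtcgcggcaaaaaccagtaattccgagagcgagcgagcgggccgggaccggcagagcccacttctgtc

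It held 1 E-box and 1 GC box and neither a CCAAT box nor the sterol regulatory element as spelled.

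The regulators went separate ways. Srebf2, the SREBP mainly tied to sterol genes, stood at 115, 127 and 102 CPM in the libraries labelled siMt2, against 87.9, 90.3 and 88.0 CPM in siNT libraries (log2 fold change 0.38, SE 0.07, edgeR adjusted p = 0.000243). Srebf1, the SREBP mainly tied to fatty acid genes, stood at 31.9, 33.5 and 17.9 CPM in the libraries labelled siMt2, against 37.5, 37.6 and 40.3 CPM in siNT libraries (-0.42, SE 0.16, edgeR adjusted p = 0.0349). The third siMt2 library was far below the other two. Without it the log2 fold change of Srebf1 was -0.24 and the call was lost (edgeR adjusted p = 0.0730), as it was without siNT replicate 1 (0.0855), 2 (0.0947) or 3 (0.124) and under upper quartile scaling (0.0633). Srebf2 took 78.3%, 79.1% and 85.1% of the reads of both genes in the libraries labelled siMt2 and 70.1%, 70.6% and 68.6% in siNT libraries, a description made after values were seen.

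Scap, the escort protein, stood at 56.2, 61.5 and 40.7 CPM in the libraries labelled siMt2, against 71.7, 68.6 and 67.4 CPM in siNT libraries (log2 fold change -0.36, SE 0.11, edgeR adjusted p = 0.00931). Its lowest value was again siMt2 replicate 3, without which the log2 fold change was -0.24 and the gene still passed (edgeR adjusted p = 0.0216); it missed the threshold without siNT replicate 1 (0.0505). Insig1, which retains the SCAP complex and is itself an SREBP target, stood at 45.8, 33.7 and 41.8 CPM in the libraries labelled siMt2, against 33.1, 29.3 and 36.5 CPM in siNT libraries. The groups overlapped and the gene narrowly missed the threshold (0.29, SE 0.12, edgeR adjusted p = 0.0529). Insig1 passed without siMt2 replicate 2 (edgeR adjusted p = 0.0104), siMt2 replicate 3 (0.0492) or siNT replicate 3 (0.0461), under upper quartile scaling (0.0309), with no filter (0.0468), with a stricter filter (0.0460) and with a replicate block (0.0306), but not with DESeq2's size factors (0.0543), DESeq2 (0.131) or limma-voom (0.0671). Without siMt2 replicate 1 its log2 fold change was 0.17 (edgeR adjusted p = 0.359), without siNT replicate 2 it was 0.22 (0.213) and without siNT replicate 1 it was 0.29 (0.122). Insig2, its paralog, stood at 45.7, 45.7 and 48.1 CPM in the libraries labelled siMt2, against 48.3, 46.0 and 48.3 CPM in siNT libraries. Its interval was narrow, from 0.849 to 1.12 times the siNT level (edgeR adjusted p = 0.766).

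Within sterol synthesis, an early step and an isoprenoid-joining step were higher. Hmgcs1, the cytosolic HMG-CoA synthase, stood at 109, 108 and 114 CPM in the libraries labelled siMt2, against 73.5, 74.1 and 71.8 CPM in siNT libraries. The groups were well apart (log2 fold change 0.59, SE 0.07, edgeR adjusted p = 5.43e-07). Fdps, which makes farnesyl diphosphate, stood at 70.6, 72.8 and 69.5 CPM in the libraries labelled siMt2, against 45.4, 48.8 and 51.6 CPM in siNT libraries (0.54, SE 0.09, edgeR adjusted p = 3.34e-05). Between these steps, Pmvk, phosphomevalonate kinase, was higher at 17.3 ± 1.5 CPM in the libraries labelled siMt2 and 12.3 ± 0.567 CPM in siNT libraries (0.47, SE 0.17, edgeR adjusted p = 0.0219). The Pmvk call was lost without siMt2 replicate 3 (edgeR adjusted p = 0.0508), siNT replicate 2 (0.0533) or siNT replicate 3 (0.0673), and with DESeq2 (0.0753). Mvd, the decarboxylase that follows, stood at 10.5, 11.5 and 8.78 CPM in the libraries labelled siMt2, against 17.6, 11.7 and 17.6 CPM in siNT libraries (-0.61, SE 0.20, edgeR adjusted p = 0.0138). The highest siMt2 value of Mvd nearly met the lowest siNT value, and the gene no longer passed without siNT replicate 1 (edgeR adjusted p = 0.0697) or siNT replicate 3 (0.0830).

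The thiolase gene Acat2, the mevalonate kinase gene Mvk and the isomerase gene Idi1 did not pass, with log2 fold changes of -0.06, -0.0031 and -0.02 and standard errors of 0.17 to 0.19. Fdft1, the squalene synthase, stood at 39.3, 35.1 and 43.5 CPM in the libraries labelled siMt2, against 22.0, 28.4 and 37.3 CPM in siNT libraries (0.41, SE 0.16, edgeR adjusted p = 0.0505). The siNT values of Fdft1 were widely spread and reached into the siMt2 range, and without siNT replicate 3 the gene passed (0.65, edgeR adjusted p = 0.00245), whereas the estimate was 0.22 without siNT replicate 1 (0.207). It did not pass in the other fits without 1 library (0.0524 to 0.147), with DESeq2's size factors (0.0530) or with DESeq2 (0.0523). Fdft1 also passed under upper quartile scaling (0.0361), with no filter (0.00459), a stricter filter (0.0433) or a replicate block (0.00486), and with limma-voom (0.0383).

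Of 8 enzymes up to squalene, 3 were higher and 1 lower, and of 10 after it 2 were higher and 3 lower. The shares over all genes tested were 25.8% higher and 25.1% lower. No test was made between these parts of the route. Lss, lanosterol synthase, which closes the sterol rings, stood at 35.8, 34.4 and 31.6 CPM in the libraries labelled siMt2, against 60.5, 62.9 and 61.1 CPM in siNT libraries. It was the deepest fall among the synthesis enzymes (log2 fold change -0.84, SE 0.10, edgeR adjusted p = 4.32e-07). Sqle, the squalene epoxidase one step earlier, stood at 74.5, 79.9 and 75.1 CPM in the libraries labelled siMt2, against 76.9, 73.6 and 76.4 CPM in siNT libraries, and its interval was narrow, from 0.904 to 1.13 times the siNT level. Cyp51, the lanosterol demethylase one step later, was slightly higher at 121, 125 and 123 CPM in the libraries labelled siMt2, against 106, 109 and 106 CPM in siNT libraries (0.21, SE 0.06, edgeR adjusted p = 0.00842). Lss and Cyp51, consecutive on the route, had calls of opposite sign.

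The promoters of Hmgcs1 and Lss are shown as the synthesis enzymes with the smallest adjusted p in each direction.

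Hmgcs1, chr2:53382054-53382353, plus strand: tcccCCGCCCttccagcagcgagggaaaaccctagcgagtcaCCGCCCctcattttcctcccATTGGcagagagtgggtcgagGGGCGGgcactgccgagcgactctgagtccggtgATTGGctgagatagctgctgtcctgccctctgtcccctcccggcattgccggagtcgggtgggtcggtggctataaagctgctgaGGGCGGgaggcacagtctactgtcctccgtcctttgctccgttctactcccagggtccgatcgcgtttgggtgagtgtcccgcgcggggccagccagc

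Lss, chr20:12118181-12118480, minus strand: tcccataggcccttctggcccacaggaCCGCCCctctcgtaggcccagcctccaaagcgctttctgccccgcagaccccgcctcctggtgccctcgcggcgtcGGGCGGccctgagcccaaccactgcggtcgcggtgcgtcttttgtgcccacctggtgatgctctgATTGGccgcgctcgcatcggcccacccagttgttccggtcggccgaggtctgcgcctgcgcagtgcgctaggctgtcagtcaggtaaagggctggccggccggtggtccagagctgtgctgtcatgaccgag

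The Hmgcs1 window held 2 CCAAT boxes and 4 GC boxes, and the Lss window 1 CCAAT box and 2 GC boxes, so genes that moved in opposite directions held the same kinds of match.

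Of the remaining late enzymes, Msmo1, a sterol methyl oxidase, stood at 62.7, 52.1 and 66.0 CPM in the libraries labelled siMt2, against 66.8, 79.8 and 80.97 CPM in siNT libraries (log2 fold change -0.34, SE 0.10, edgeR adjusted p = 0.00787). The groups almost touched, and the call was lost without siMt2 replicate 2 (-0.24, edgeR adjusted p = 0.0620) or siNT replicate 3 (-0.28, 0.0594). Sc5d, the lathosterol desaturase, was lower at 82.4 ± 6.60 CPM in the libraries labelled siMt2 and 95.7 ± 3.56 CPM in siNT libraries (-0.23, SE 0.08, edgeR adjusted p = 0.0144). Its call was lost without siMt2 replicate 1 (edgeR adjusted p = 0.116), siMt2 replicate 2 (0.0518), siNT replicate 1 (0.0562) or siNT replicate 3 (0.0561), and with DESeq2 (0.0528). Hsd17b7, a sterol keto reductase, was low but higher, at 6.96 ± 0.664 CPM in the libraries labelled siMt2 and 4.10 ± 1.10 CPM in siNT libraries (0.75, SE 0.28, edgeR adjusted p = 0.0317). The Hsd17b7 call, which rests on 16 to 45 reads per library, was lost in 5 of 6 fits without 1 library, all but that without siNT replicate 2, with adjusted p of 0.0562 (siNT replicate 3), 0.0564 (siMt2 replicate 2), 0.0651 (siMt2 replicate 3), 0.0677 (siMt2 replicate 1) and 0.146 (siNT replicate 1), and with DESeq2 (0.0909). Nsdhl, Ebp, Dhcr7 and Tm7sf2, enzymes of demethylation, isomerisation and double bond reduction, did not pass, with log2 fold changes of -0.11, -0.32, -0.32 and 0.29. Ebp lay lower in all 3 siMt2 libraries without passing (edgeR adjusted p = 0.110).

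**Figure D3:**
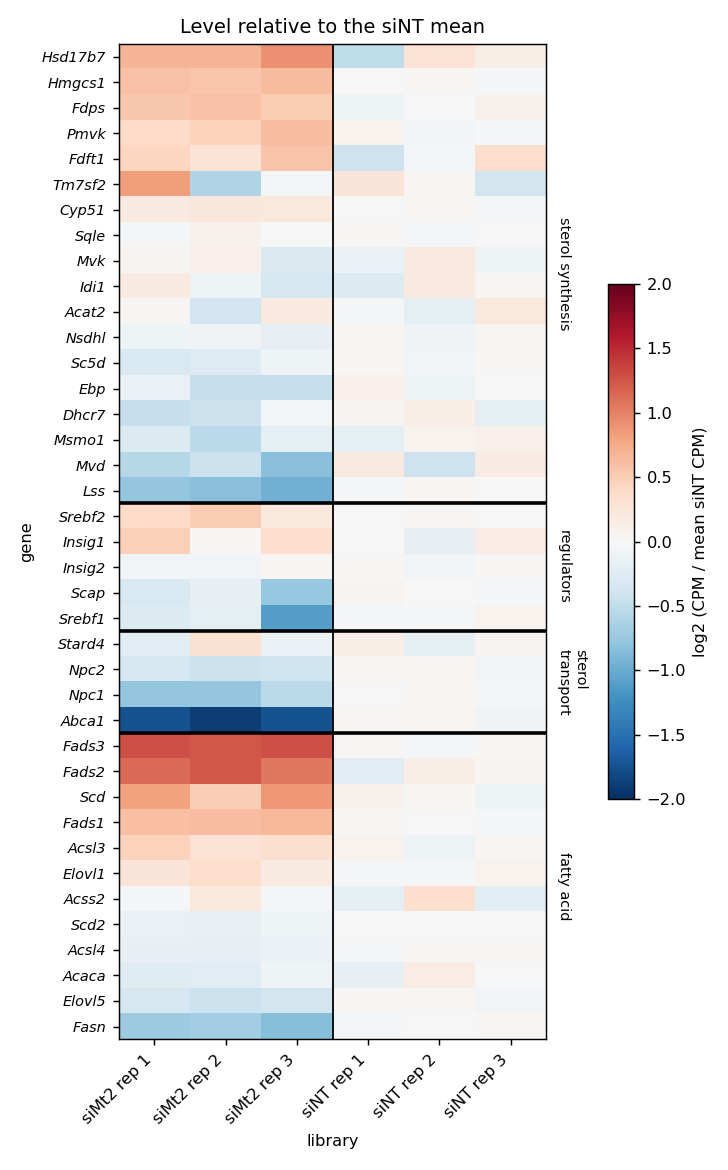
Log2 of CPM over the mean siNT CPM for the 39 tested genes (rows, by role and fold change) in the 3 libraries labelled siMt2 (left) and 3 siNT libraries (right). Red is higher and blue lower. Abca1 is darkest blue in all 3 siMt2 libraries, and Srebf1 and Scap are bluest in siMt2 replicate 3.

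Over the whole set, RefSeq promoters were found for 33 of 41 genes, 34 windows in all since Srebf1 has 2. The CCAAT box occurred in 24 of 34 windows (70.6%), against 37.8% of windows of genes tested here and 37.5% of all 33469 windows. The GC box occurred in 27 (79.4%), against 61.7% and 33.1%, and the E-box in 5 (14.7%), against 9.34% and 6.42%. The sterol regulatory element as spelled occurred in 0 windows, against 1.03% and 1.12%, a statement about these letters in these windows only. By direction, the CCAAT box was in 7 of 11 windows of genes that were higher, 9 of 13 of genes that were lower and 8 of 10 of genes that did not pass. The GC box was in 9 of 11, 11 of 13 and 7 of 10 windows in the same order. The E-box was in 0 of 11 windows of higher genes, in 4 of 13 of lower genes (Abca1, Elovl5, Sc5d and Scap) and in that of Insig1. No test was made between directions.

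Other genes of these pathways, 121 in 8 lists, of which 95 were tested, were higher in 35 cases and lower in 23 (61.1% in either direction, against 50.9% of all genes tested), with a median log2 fold change of -0.0075. Of 6 tested genes listed under sterol synthesis outside the set, 3 were higher and 0 lower, against 25.8% and 25.1% of all genes tested. Among these 3 was Acat1 (log2 fold change 0.43, SE 0.11), which encodes a mitochondrial thiolase. Acat2, the thiolase gene of the set, did not pass (-0.06). Among 14 tested genes of sterol uptake, esterification and oxidation, 5 were higher and 6 lower. The lipoprotein receptor gene Lrp8 was higher (0.74, SE 0.09), whereas Lipa, the lysosomal acid lipase, was lower (-0.48, SE 0.05). Of 19 tested sensing and regulatory genes, 6 were higher and 5 lower. Erlin1, a membrane scaffold that takes part in sterol-regulated degradation, averaged 329 ± 14.6 CPM in the libraries labelled siMt2 and 134 ± 1.87 CPM in siNT libraries (1.29, SE 0.05), and Nr1h2, the gene of LXR beta, averaged 21.0 ± 4.47 CPM in the libraries labelled siMt2 and 46.5 ± 4.50 CPM in siNT libraries (-1.14, SE 0.13). Nr1h3, the gene of LXR alpha, was too low to test.

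Of 18 sterol-carrier genes, 9 were higher and 1 lower. Among them were the caveolin gene Cav1 (log2 fold change 0.70, SE 0.05) and Osbpl6 (0.65, SE 0.08), both higher. For this list and those that follow, the shares over all genes tested were 25.8% higher and 25.1% lower. Of 8 further genes of fatty acid synthesis, 2 were higher and 3 lower. Acly, ATP citrate lyase, which supplies cytosolic acetyl-CoA, averaged 176 ± 17.4 CPM in the libraries labelled siMt2 and 252 ± 3.91 CPM in siNT libraries (-0.53, SE 0.06), the pantothenate kinase gene Pank1 was lower (-1.26, SE 0.10), and the citrate carrier gene Slc25a1 was higher (1.04, SE 0.12). Genes of desaturation and chain elongation outside the set were higher in 2 of 8 and lower in 2. Hacd4 (1.21, SE 0.17) and Tecr (0.25, SE 0.07), neither a desaturase nor an elongase gene, were higher. The desaturase gene Degs1 (-0.35, SE 0.06) was lower. Of 8 tested acyl-CoA synthetase, fatty acid transporter and thioesterase genes, 4 were higher and 2 lower, with Acot2 (1.00, SE 0.12), Acsf2 (0.72, SE 0.11) and Acsl1 (0.36, SE 0.06) higher. Of 14 glycerolipid synthesis genes, 4 were higher and 4 lower, with Dgat2 (0.84, SE 0.06) and Lpin3 (0.85, SE 0.11) higher and Agpat3 (-0.75, SE 0.09) lower. The edgeR adjusted p was at most 0.00599 for every gene given with a standard error in this paragraph and the one before.

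**Figure D4:**
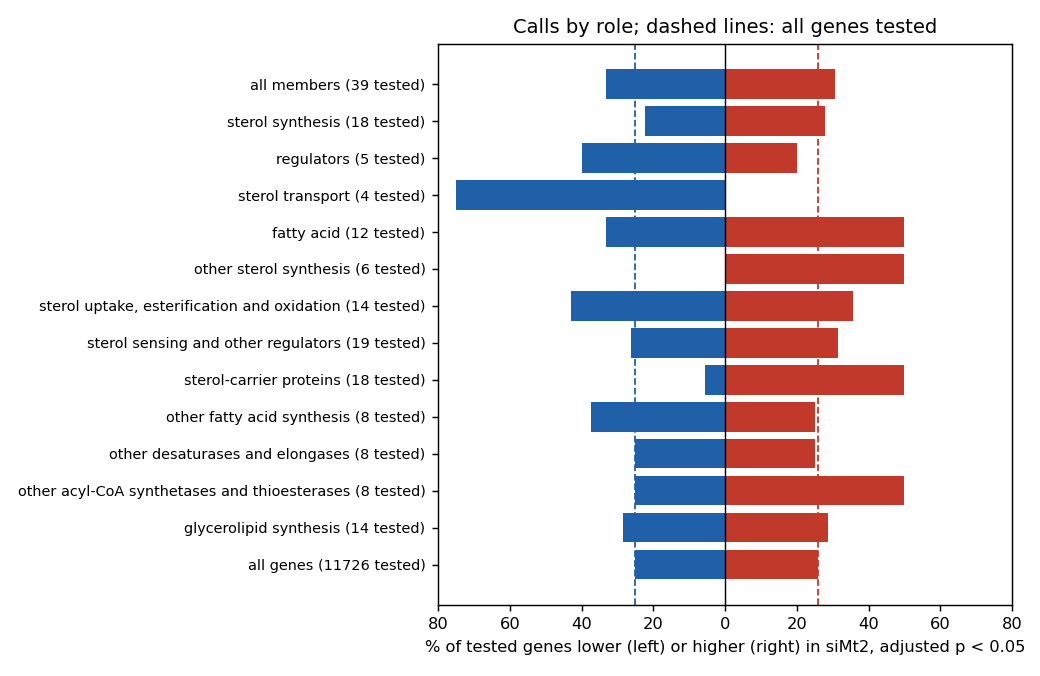
Percentage of tested genes called higher (red, right) or lower (blue, left) in the libraries labelled siMt2, by role, with the number tested in brackets. Dashed lines mark all genes tested (25.8% higher, 25.1% lower). Sterol transport genes extend left only, and other sterol synthesis genes right only.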

How the data were processed

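The members and lists were chosen with earlier results of these data known. The authors deposited raw counts per gene, 1 file per library, with no normalization. Per the submitters' processing notes, the tools were HISAT2 2.2.1, Trimmomatic 0.40, featureCounts, DESeq2 and limma, on build rn6; strand use and multi-mapping are not given in the sources used here. All 6 files list 18237 rows in the same order; 25 names had become dates in a spreadsheet (0.260% of counts) and were kept throughout. Per the labels, 3 libraries are siMt2 and 3 siNT.

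The tests were run with edgeR 4.0.16 in R 4.3.3: filterByExpr (minimum count 10), TMM scaling and the two-sided quasi-likelihood test with robust dispersion, with Benjamini-Hochberg adjustment over 11726 genes and a threshold of 0.05. Standard errors are the log2 fold change over the square root of the F statistic. Fold changes are siMt2 over siNT. The procedure was tested on simulated data. Alternatives were other scalings and filters, a replicate block, each library left out, DESeq2 1.42.0 and limma-voom (limma 3.58.1). Values in every library were given for the 5 regulators and up to 6 genes of each other role with the smallest adjusted p, besides a few named for contrast after their values were seen; of each other list up to 3 genes with the smallest adjusted p were named, except some that are not reported here. Within groups, library pairs had a median chi-square per gene 1.57 to 2.23 times that of sampling noise, and each library was treated as separate. Depth was 2859759 to 6817777 counts per library. Promoters came from RefSeq (GRCr8).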

Additional observations from a re-analysis of the deposited data

How the results depend on the processing

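No called gene of the set changed sign under the 13 alternatives, and 14 of 25 calls (Abca1, Cyp51, Elovl5, Fads1, Fads2, Fads3, Fasn, Fdps, Hmgcs1, Lss, Npc1, Npc2, Scd and Srebf2) were kept in each. DESeq2 called 3 sterol synthesis genes higher in place of 5. The regulators called higher numbered 2 in place of 1 under upper quartile scaling, no filter, the stricter filter and the replicate block, and upper quartile scaling left 1 regulator and 2 fatty acid genes called lower in place of 2 and 4. Upper quartile scaling moved the median of all genes by 0.04. The cause was not tested. With 1 library left out, counts ranged over 8 to 13 genes of the set lower, 3 to 4 and 1 to 4 sterol synthesis genes higher and lower, 1 to 2 and 0 to 2 regulators higher and lower, and 2 to 5 fatty acid genes lower; such fits assume that 2 libraries vary like the other group's 3.

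The replicate numbers do not pair the samples by the labels, and same-numbered libraries had deviations correlated by -0.0018, -0.06 and 0.023; with the replicate number as a block 2968 genes were higher and 2929 lower in place of 3025 and 2945, 14 of the set higher and 13 lower. Under that block Fdft1 (adjusted p = 0.00486) and Insig1 (0.0306) passed.

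The log2 fold change of genes that did not pass turned positive for Mvk under upper quartile scaling (0.036), the stricter filter (0.0072) and limma-voom (0.023), and for Idi1 under upper quartile scaling (0.020) and limma-voom (0.021). It also did so for Insig2 (0.00065) and Stard4 (0.020) under upper quartile scaling. With 1 library left out it ranged from -0.56 to 0.052 for Mt2a, from -0.15 to 0.082 for Acat2, from -0.069 to 0.086 for Mvk, from -0.18 to 0.085 for Idi1, from -0.015 to 0.040 for Sqle, from -0.31 to 0.57 for Tm7sf2, from -0.19 to 0.12 for Stard4, from -0.030 to 0.25 for Acss2 and from -0.14 to 0.050 for Fen1. Of the 39 tested genes, the widest intervals were those of Tm7sf2, Hsd17b7 and Stard4, which also had the lowest levels; the part of depth in the width was not tested.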
